A study of Mus musculus with 15 samples.

Results

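The comparison was between newborn mouse epidermis that carried an edited Tmprss11 protease cluster and wild-type epidermis. It used the 7 epidermis libraries among the 15 libraries of the series, taken by their titles: 3 wild type (WT 1 to WT 3) and 4 knockout (KO 1 to KO 4). All pups were at postnatal day 1. The knockout genotype was given as Tmprss11a,b,c,d,e,f,g-/-, the product of multiplexed gene editing, with no Cre or other driver named. The wild-type libraries carried the same cluster name in their strain label, and no other allele or treatment was named for either group. cDNA of whole epidermis, lifted off the dermis of frozen skin after heat and EDTA, was sequenced, so fewer cells of a type and less RNA per cell cannot be told apart in any value below. Each library also had a code, and the codes fell into 3 ranges: A32x held WT 1 and KO 1, A34x held KO 2, and A38x held WT 2, WT 3, KO 3 and KO 4. The labels did not say what a range marks. Genes were tested over all 7 libraries and within A38x, where each genotype had 2 libraries.

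The Tmprss11 genes encode the HAT/DESC proteases, trypsin-like serine proteases held in the plasma membrane of surface epithelia. Tmprss11f encodes HAT-like 4. Proteases of the upper epidermis cleave filaggrin, junction proteins and other proteases while keratinocytes turn into the cornified layer, which keeps water in the body after birth. Keratinocytes build that layer from cross-linked envelope proteins, keratins bundled by filaggrin, and lipids made from ceramides and cholesterol.

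Total counted reads ran from 10117819 in WT 1 to 17045801 in WT 3. Keratinocyte genes dominated all 7 libraries, with Krt1 at 12187 to 28802 CPM (reads per gene scaled to the library's effective size) and Krt14 at 1316 to 2946. Mitochondrial ribosomal RNA took 44.6% of reads in WT 1 and 20.1% to 23.8% in the other 6 libraries. The knockout mean of 22.0 ± 0.891% (SD, n = 4) did not differ from the wild-type mean of 29.5 ± 13.2% (SD, n = 3) beyond the spread (two-sided exact permutation test, p = 0.257, where 0.0286 is the smallest possible). Summed CPM of 27 cytosolic ribosomal protein genes was 2332 in WT 1 and 5613 to 9123 elsewhere. Xist, the RNA that coats the inactive X chromosome of females, was at 2870 CPM in KO 1 and 2157 in KO 3 and at 54.8 or less in the other 5 libraries, where Y-linked genes summed to 341.9 to 418 CPM. Thus in A38x 1 of 2 knockout libraries and neither wild-type library was high in Xist, and the part of sex in the results was not tested. The 2 transgene entries of the table had like levels in both genotypes, at 8.08 to 14.7 CPM for beta-lac and 0.338 to 1.24 CPM for LacZ.

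WT 1 stood apart by more than its mitochondrial reads. The first principal component held 58.8% of the variance and put WT 1 at 114, KO 1 at 42.6 and the other 5 libraries between -46.3 and -15.8. Its leading genes were Ldhc, Pmfbp1, Fsip2, Adam5 and others made in the testis, where Ldhc is the lactate dehydrogenase of sperm. A list of 26 male germ cell genes, written after these values were seen, summed to 1158 CPM in WT 1, 331 in KO 1 and 7.77 to 45.7 in the other 5 libraries. Prm1, a protamine that packs sperm DNA, was at 71.2, 0.113 and 2.31 CPM in WT 1, WT 2 and WT 3, and at 25.6, 0.174, 1.12 and 2.26 CPM in KO 1 to KO 4. Tnp1, a transition protein of maturing sperm, followed the same order of libraries, at 92.4 CPM in WT 1, 31.3 in KO 1 and 4.06 or less elsewhere. KO 1, the library second in these genes, was the one with the highest Xist level. Of the 16073 genes tested, 628 were more than 4-fold above the mean of the 5 libraries outside A32x in WT 1, and 615 of these (97.9%) were above that mean in KO 1 too, against 51.5% of all genes. All 18 germ cell genes that could be compared were among the 628. The excess was larger in WT 1, with a median log2 difference of 3.59, than in KO 1, with 1.96. Any value below that includes WT 1 or KO 1 includes this pattern. Its part in the genotype results was not tested beyond the fits without those libraries and a fit with germ cell gene level as a covariate.

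**Figure D1:**
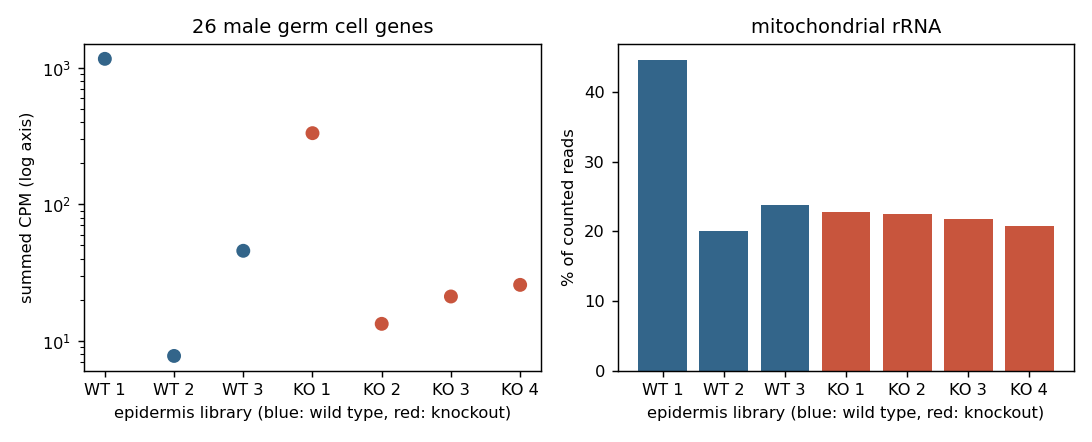
Summed CPM of 26 male germ cell genes on a log axis (left, points) and the share of counted reads on mitochondrial ribosomal RNA (right, bars from 0) in each of the 7 epidermis libraries, wild type in blue and knockout in red. WT 1 (1158 CPM) and KO 1 (331 CPM) stand above the other libraries on the left, and WT 1 alone (44.6%) does on the right.

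The targeted genes checked the labels, and 6 of the 7 were analysed. In A38x Tmprss11b, Tmprss11e and Tmprss11f fell, and Tmprss11a, Tmprss11d and Tmprss11g did not pass. The first count gives the background: 604 of 15760 genes (3.83%) passed in A38x with edgeR's quasi-likelihood test at a Benjamini-Hochberg adjusted p of 0.05, 230 of them (1.46%) lower. Tmprss11b (chr5:86657631-86676362, minus strand, GRCm38) was at 3.96, 3.88 and 4.06 CPM in the wild-type libraries and at 1.25, 0.349, 0.945 and 1.16 CPM in the knockouts. The groups were well apart, and its log2 fold change in A38x was -1.91 (SE 0.34, edgeR adjusted p = 0.00576). Tmprss11f (chr5:86521898-86632424, minus strand), the gene of HAT-like 4, was at 321, 240 and 252 CPM in wild type and at 106, 237, 152 and 168 CPM in the knockouts. KO 2 lay just under the lowest wild-type library, and the A38x log2 fold change was -0.62 (SE 0.14, 95% interval -0.92 to -0.33). Tmprss11e (log2 fold change -1.10 in A38x) did not overlap either, with 3.59, 4.73 and 4.45 CPM in wild type against 2.85, 2.88, 1.89 and 2.38 CPM. Its call (edgeR adjusted p = 0.0494) was lost without WT 2, WT 3 or KO 3 (0.129, 0.0964 and 0.147) and with DESeq2 (0.139), limma-voom (0.0715) or mitochondrial genes removed (0.0552), and that of Tmprss11f without KO 3 (0.0825). Tmprss11d, at 0.990 to 1.30 CPM in wild type and 0.569 to 0.672 CPM in the knockouts, was the fourth gene of the 6 whose groups did not overlap. Tmprss11a spanned 2.35 to 2.42 CPM in wild type and 1.195 to 2.70 CPM in the knockouts, and Tmprss11g 6.87 to 10.99 and 6.20 to 20.1 CPM. Reads of each of the 6 analysed genes remained in every knockout library, and read counts over an edited gene do not measure its protein.

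**Figure D2:**
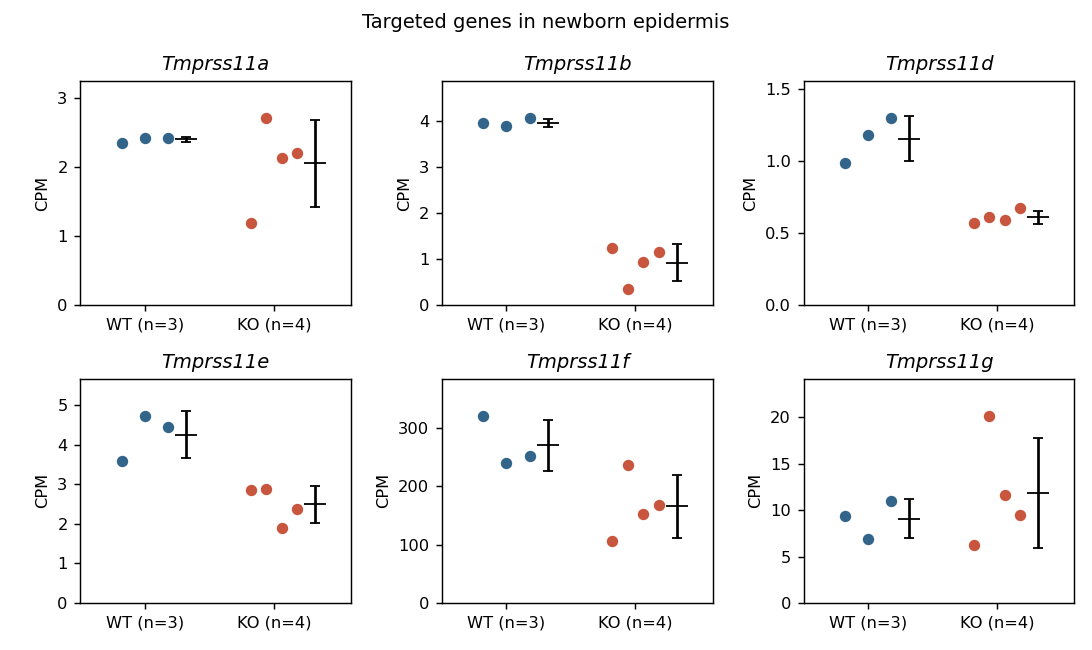
CPM of the 6 analysed targeted genes in each library, 3 wild type (blue points) and 4 knockout (red points), with the mean and SD in black on axes that start at 0. The groups do not overlap for Tmprss11b, Tmprss11d, Tmprss11e and Tmprss11f, and they overlap for Tmprss11a and Tmprss11g.

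Over all 7 libraries no gene passed (0 of 16073, 0%, edgeR quasi-likelihood test). At an unadjusted p under 0.05 there were 187 genes (1.16%). DESeq2 called 1 gene, Tmprss11b, and limma-voom called 0 with 162 genes at an unadjusted p under 0.05. With the code range as a block edgeR called 1 (0.00622%), Irf7, and without the A32x libraries 1, Fos, which are described below. Under that block KO 2, alone in its range, adds nothing to the genotype difference. Groups did not overlap for 142 genes that were higher in the knockouts (0.883%) and 200 that were lower (1.24%). The 95% interval of the fold change lay within 2-fold either way for 59.6% of genes.

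The next genes were those with the smallest unadjusted p over the 7 libraries among genes whose groups did not overlap. Their separation was thus set by the choice. Those higher in the knockouts included sodium channel subunits, a lipid exporter and an EGF receptor ligand. Abcg1 (chr17:31057675-31117988, plus strand), which moves cholesterol out of cells, was at 7.30, 7.09 and 5.69 CPM in wild type and at 9.73, 13.1, 17.6 and 23.5 CPM in the knockouts. Ereg, the EGF receptor ligand epiregulin, was at 75.5, 64.7 and 97.6 CPM in wild type and at 98.0, 164, 179 and 214 CPM in the knockouts, with KO 1 only just above WT 3. Bcl6, a transcriptional repressor, ran from 12.4 to 18.01 CPM in wild type and from 21.9 to 37.4 CPM in the knockouts. In all 3 KO 1 was closer to wild type than KO 4 was. The log2 fold changes over 7 libraries were 1.26 (SE 0.32) for Abcg1, 1.05 (SE 0.28) for Ereg and 0.85 (SE 0.24) for Bcl6, and none passed edgeR's adjusted threshold there. In A38x all 3 rose, though Bcl6 lost its call without KO 4 (edgeR adjusted p = 0.186).

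The genes that were lower in every knockout library, taken in the same way, included Odc1, Hgf and Clock. Odc1, the first enzyme of polyamine synthesis, was at 27.1, 23.4 and 28.4 CPM in wild type and at 19.4, 12.1, 14.1 and 13.4 CPM in the knockouts. Hgf, hepatocyte growth factor, whose precursor is activated by serine proteases, was at 3.47, 5.68 and 5.30 CPM against 0.740, 2.35, 2.07 and 1.53 CPM. Clock, a core activator of the circadian clock, was at 129, 91.5 and 116 CPM against 84.8, 89.5, 60.7 and 65.0 CPM. The knockout libraries of Odc1 and Hgf were clear of wild type, whereas KO 2 and WT 2 nearly met for Clock. Log2 fold changes over the 7 libraries were -0.83 (SE 0.21) for Odc1, -1.54 (SE 0.42) for Hgf and -0.58 (SE 0.21) for Clock. In A38x all 3 fell, Clock not without WT 3 (edgeR adjusted p = 0.103). Tdrd1, a protein of germ cell small-RNA granules, was also in this group, and its wild-type values of 30.7, 13.6 and 15.9 CPM were highest in WT 1, the library rich in germ cell genes.

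Within A38x the comparison looked very different in size. In KO 3 and KO 4 against WT 2 and WT 3, 374 genes rose (2.37%) and 230 fell (1.46%), with 152 and 94 of them past 2-fold. With 1 library left out the total ran from 462 without KO 4 to 788 without KO 3, and limma-voom called 411. The fold-change interval lay within 2-fold for 68.6% of genes. These p-values measure the spread between 2 libraries of each genotype, which the labels do not say were separate litters or days, and KO 1 and KO 2 did not enter them. With 1 library left out, 1 genotype is a lone library that is assumed to vary like the 2 of the other, so those settings show which library a call needs and not how stable it is. The levels in KO 1 and KO 2 are given for most of the genes whose levels are printed, and genes given by their fold change alone rest on A38x only.

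**Figure D3:**
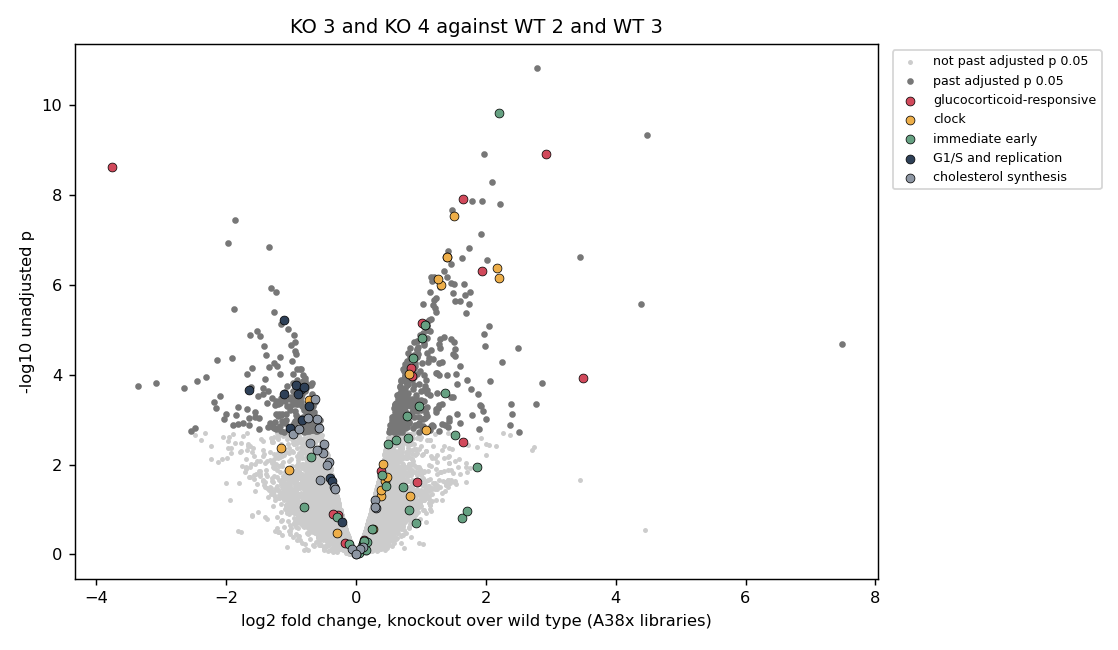
Log2 fold change of KO 3 and KO 4 over WT 2 and WT 3 (x axis) against -log10 of the unadjusted edgeR p (y axis) for the 15760 genes tested in A38x, in dark grey where the adjusted p was under 0.05 and with 5 gene lists in colour. Glucocorticoid-responsive and clock genes lie mostly to the right and G1/S and cholesterol synthesis genes to the left.

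Glucocorticoid-responsive genes rose in A38x. Glucocorticoids bind a nuclear receptor that switches such genes on directly, and in skin they restrain growth and inflammation. Of 17 members tested 9 rose and 1 fell, with a median log2 fold change of 0.94 where that of all genes was -0.01. Tsc22d3 (chrX:140539528-140600659, minus strand), which encodes the glucocorticoid-induced leucine zipper, was at 8.05, 10.4 and 11.3 CPM in wild type and at 12.2, 11.6, 162 and 81.8 CPM in the knockouts. Zbtb16, a transcription factor induced by the hormone, was at 17.0, 21.5 and 13.8 CPM in wild type and at 36.9, 9.50, 130 and 139 CPM in the knockouts. Fkbp5, a chaperone that dampens the receptor, was at 30.6, 75.8 and 79.4 CPM against 52.5, 42.8, 267 and 220 CPM. KO 3 and KO 4 stood far above the other 5 libraries, and KO 2 was at or below wild-type levels save for Tsc22d3, where it just exceeded them. KO 1 was above the wild-type range for Tsc22d3 and Zbtb16 and within it for Fkbp5. A38x log2 fold changes were 3.49 (SE 0.37) for Tsc22d3, 2.93 (SE 0.20) for Zbtb16 and 1.65 (SE 0.15) for Fkbp5. Tsc22d3 lost its call without either wild-type library (edgeR adjusted p = 0.313 and 0.317), while those of Zbtb16 and Fkbp5 were kept in each of the 9 other settings tried. The list had 8 to 10 members higher in those settings. Klf9, a Krüppel-like repressor of keratinocyte growth, rose with a log2 fold change of 1.93 (SE 0.23), again from KO 3 (31.8 CPM) and KO 4 (21.4 CPM) against 4.79 to 9.79 CPM elsewhere. Serpina3n, a secreted protease inhibitor outside the list, had the largest rise among the named genes at a log2 fold change of 4.49 (SE 0.32), from 0.619 and 0.451 CPM in WT 2 and WT 3 to 13.4 and 10.9 CPM in KO 3 and KO 4. WT 1 was at 1.98 CPM for it and KO 1 and KO 2 at 1.14 and 2.18 CPM.

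One promoter is shown because its match to the receptor's full motif is rare. Upstream of annotated starts, 250 bases were searched on both strands in RefSeq sequence (GRCm38.p6) for the palindromic glucocorticoid response element, and 3 of 27025 genes held it (0.0111%). Among the 15 glucocorticoid-responsive genes with an entry it was found at Sgk1 alone. Sgk1 encodes the hormone-induced kinase that keeps the epithelial sodium channel at the cell surface. The stretch is chr10:21993671-21993745 on the plus strand, with the motif in capitals, 175 to 189 bases before a start.
Sgk1: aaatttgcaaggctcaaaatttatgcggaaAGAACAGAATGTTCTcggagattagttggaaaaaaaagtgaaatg
A match describes letters only, and most sites of the receptor lie outside such windows.

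Sgk1 and the beta and gamma subunits of the channel it serves were among the genes whose groups did not overlap over all 7 libraries. The epithelial sodium channel is a target of membrane serine proteases, which activate it by cleaving its gamma subunit. Of 9 genes of the channel and its regulators 4 rose in A38x, Scnn1g, Scnn1b, Sgk1 and Tsc22d3, and none fell, with a median of 0.51. The same 4 were higher in every knockout than in every wild-type library, as were 0.883% of all genes. The 7 libraries include the A38x ones that gave the calls. Scnn1g (chr7:121734479-121768475, plus strand), the gamma subunit, was at 6.68, 10.9 and 10.3 CPM in wild type and at 13.4, 15.2, 30.4 and 28.3 CPM in the knockouts. Scnn1b, the beta subunit, was at 16.8, 22.2 and 25.6 CPM against 28.9, 35.5, 50.6 and 33.8 CPM. Sgk1 was at 41.1, 46.2 and 48.4 CPM against 49.6, 76.5, 97.6 and 74.6 CPM. Every knockout library was above every wild-type library for each, by the least in KO 1. The A38x log2 fold changes were 1.47 (SE 0.19) for Scnn1g, 0.82 (SE 0.20) for Scnn1b and 0.86 (SE 0.17) for Sgk1. The call of Scnn1g held in all 9 other settings, whereas without KO 3 Scnn1b had an edgeR adjusted p of 0.305 and Sgk1 of 0.054, and Scnn1b had 0.0834 without WT 2 and 0.0696 with limma-voom. The list had 3 members higher without KO 3, without WT 3 and with limma-voom, and 2 without WT 2. Scnn1a, the alpha subunit, overlapped, at 20.8 to 34.96 CPM in wild type and 25.6 to 48.0 CPM in the knockouts, with an A38x log2 fold change of 0.04 (95% interval -0.41 to 0.49).

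Circadian clock genes rose in the same libraries. The clock is a loop in which CLOCK or NPAS2 with BMAL1 switches on the Per and Cry genes through E-box motifs, and the PER and CRY proteins switch them off again. Of 20 clock genes tested in A38x 8 rose and Clock itself fell, with a median of 0.46. Per2, a repressor of the loop, was at 22.2, 11.7 and 11.8 CPM in wild type and at 22.5, 11.1, 39.9 and 66.4 CPM in the knockouts. Cry2, its partner, was at 82.2, 49.7 and 46.3 CPM against 62.2, 41.6, 135 and 140 CPM. Ciart, another repressor, was at 4.21, 1.86 and 1.97 CPM against 3.93, 1.13, 9.80 and 7.82 CPM. WT 1 and KO 1 were both above WT 2, WT 3 and KO 2, and KO 3 and KO 4 were highest. The A38x log2 fold changes were 2.17 (SE 0.23) for Per2, 1.52 (SE 0.15) for Cry2 and 2.20 (SE 0.27) for Ciart. Per1 (log2 fold change 1.40, SE 0.16), Wee1 (1.27, SE 0.16) and Tef (0.82, SE 0.16) also rose and kept their calls in all 9 other settings. Npas2 rose with an edgeR adjusted p of 0.0476, which was lost in 5 of them, the highest being 0.347 without KO 4. The output gene Dbp, at 3.94 and 2.65 CPM in WT 2 and WT 3 and 1.48 and 1.47 CPM in KO 3 and KO 4, and the repressor Nr1d1 lay the other way and did not pass (edgeR adjusted p = 0.0803 and 0.148). The hour at which each pup was collected was not given, so its part was not tested.

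The E-box CACGTG stood in the 250 bases before the start of 5 of 16 clock genes with a RefSeq entry, against 6.86% of all 27025 genes. Those of the 3 called genes are shown, with the motif in capitals. Per1 is at chr11:69098753-69098818 (plus strand), Ciart at chr3:95882237-95882302 (minus strand), where 2 E-boxes fall in the stretch, and Tef at chr15:81802516-81802581 (plus strand).
Per1: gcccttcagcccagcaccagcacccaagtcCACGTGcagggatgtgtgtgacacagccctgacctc
Ciart: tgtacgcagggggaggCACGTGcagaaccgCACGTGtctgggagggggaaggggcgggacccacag
Tef: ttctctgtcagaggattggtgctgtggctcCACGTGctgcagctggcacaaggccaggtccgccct
The motif also stood in 7 of 26 immediate early and 4 of 15 glucocorticoid-responsive genes, so it was not peculiar to the clock list.

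Immediate early genes, which cells switch on within minutes of a stimulus, were higher in KO 3 and KO 4, and some also in KO 2. Of 31 tested 7 rose in A38x and none fell, with a median of 0.62. Over the 7 libraries 30 of 31 had a log2 fold change above 0 with none passing, against 8062 of all 16073 genes. Other lists leaned as far there, with all 27 cytosolic ribosomal protein genes and all 14 desmosome genes above 0. That count was thus not peculiar to immediate early genes. Fos (chr12:85473890-85477273, plus strand), a subunit of the AP-1 transcription factor, was at 15.2, 39.1 and 38.9 CPM in wild type and at 19.3, 134, 177 and 181.8 CPM in the knockouts. Dusp1, a phosphatase that shuts down stress kinases, was at 21.5, 44.4 and 42.0 CPM against 25.2, 72.8, 80.1 and 100 CPM. Both were lowest in WT 1 and KO 1, and KO 2 sat with KO 3 and KO 4 here. The A38x log2 fold changes were 2.20 (SE 0.15) for Fos and 1.06 (SE 0.16) for Dusp1. Btg2, an antiproliferative factor, rose by 1.013 on the log2 scale (SE 0.16) and Fosl2, another AP-1 subunit, by 0.89 (SE 0.16). Nr4a1, Zfp36 and Klf6 also rose, but their calls were lost without WT 3 for Nr4a1 (edgeR adjusted p = 0.0598) and without KO 4 for Zfp36 (0.181) and Klf6 (0.261), and for Klf6 without WT 2 (0.0542). Egr1, a growth-factor-induced zinc finger factor, was higher in all 4 knockouts (51.7 to 166 CPM) than in wild type (24.02 to 36.3 CPM) and did not pass in either fit.

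The letters TGACGT, the core of the cAMP response motif, stood before 9 of 26 immediate early genes with an entry, against 7.29% of all genes. They also stood before 5 of 15 glucocorticoid-responsive genes, so they were not peculiar to the immediate early list. The promoters of Fos (chr12:85473794-85473859, plus strand) and Btg2 (chr1:134079284-134079349, minus strand) are shown, with the motif in capitals. In Btg2 it overlaps its own reverse complement to give the longer palindrome.
Fos: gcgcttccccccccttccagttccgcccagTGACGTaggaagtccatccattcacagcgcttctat
Btg2: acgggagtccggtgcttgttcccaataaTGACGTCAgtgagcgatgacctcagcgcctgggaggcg

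**Figure D4:**
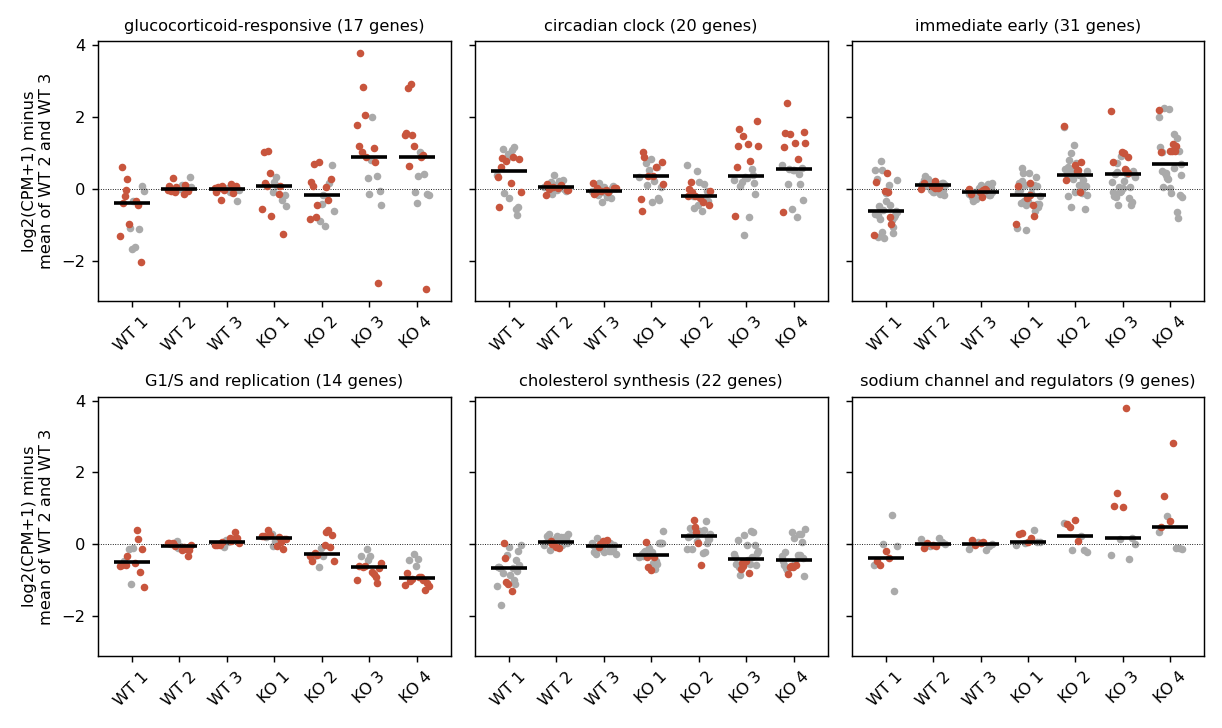
Log2(CPM + 1) of each member of 6 gene lists in each library, relative to the mean of WT 2 and WT 3 (y axis), with members past the A38x threshold in red, the others in grey and the median as a black bar. The red points of the top row, apart from Angptl4 and Clock, and of the sodium channel list lie above 0 in KO 3 and KO 4, those of the G1/S and cholesterol lists lie below 0 there, and the red points of KO 1 and KO 2 lie on both sides of 0 in the glucocorticoid panel.

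Genes of DNA replication fell in A38x while genes of mitosis did not pass. The cell cycle list was split by phase after its values were seen. Of 14 genes of the G1/S step and replication 10 fell, with a median of -0.84, and of 21 mitosis genes none passed, with a median of -0.09 and all 21 intervals within 2-fold. Over the 7 libraries the lists did not differ in this way: the median was -0.21 for each, and no gene of either passed. Mcm2, a subunit of the replicative helicase, was at 31.6, 50.1 and 47.8 CPM in wild type and at 56.8, 39.0, 23.8 and 21.6 CPM in the knockouts. Ccne1, the cyclin that opens S phase, was at 2.48, 3.77 and 6.59 CPM against 4.44, 4.71, 1.83 and 1.47 CPM. Tyms, thymidylate synthase, was at 31.9, 22.9 and 25.9 CPM against 28.1, 31.1, 13.3 and 12.3 CPM. KO 3 and KO 4 were the lowest libraries for all 3, and KO 1 and KO 2 were within or above the wild-type range. The A38x log2 fold changes were -1.11 (SE 0.16) for Mcm2, -1.65 (SE 0.34) for Ccne1 and -0.93 (SE 0.19) for Tyms. Hair follicle markers moved with these genes: all 18 were below 0 in A38x, with a median of -0.88, and KO 1 had the highest and KO 4 a low sum of both lists (794 and 409 CPM for G1/S, 1499 and 307 CPM for the follicle). Their part in the result was not tested. In the A32x pair 12 of the 14 G1/S genes were higher in KO 1, with a median of 0.64. Only 3 of the 14 genes passed without KO 4 and 6 without WT 3, and Mcm2 alone of the 10 kept its call in every setting. Mki67, the proliferation antigen, was at 265 and 320 CPM in WT 2 and WT 3 and at 332 and 271 CPM in KO 3 and KO 4 (A38x log2 fold change 0.04, 95% interval -0.28 to 0.37).

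The E2F motif TTTCCCGC or TTTGGCGC, through which replication genes are switched on at the G1/S step, stood in 4 of 11 G1/S genes with an entry, against 1.51% of all genes. It also stood in 3 of 20 ribosome biogenesis genes, none of them called, so it was not peculiar to the G1/S list. The 3 called G1/S genes with it are shown, with the motif or its reverse complement in capitals: Mcm5 (chr8:75109330-75109397, plus strand), Mcm6 (chr1:128359715-128359782, minus strand) and Cdc6 (chr11:98907983-98908050, plus strand).
Mcm5: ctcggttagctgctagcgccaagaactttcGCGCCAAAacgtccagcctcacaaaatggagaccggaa
Mcm6: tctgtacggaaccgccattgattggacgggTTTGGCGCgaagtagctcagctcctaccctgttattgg
Cdc6: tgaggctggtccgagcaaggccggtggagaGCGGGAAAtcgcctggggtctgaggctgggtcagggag
All 3 fell in A38x, with log2 fold changes of -0.84 (SE 0.17), -0.80 (SE 0.16) and -1.11 (SE 0.23), and Mcm5 and Mcm6 did not pass without KO 4 (edgeR adjusted p = 0.123 and 0.101) nor Cdc6 without WT 3 (0.0725). Ccne1 likewise did not pass without WT 3 (0.109), nor Tyms without KO 4 (0.0567).

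Ribosome biogenesis genes were low alongside. Of 26 genes, a list written after some were seen among the lower genes, 7 fell in A38x and none rose, all 26 had a log2 fold change below 0 and the median was -0.48. Without KO 4 the count was 2, and without WT 3 and with limma-voom it was 4. In the A32x pair 17 of the 26 were higher in KO 1, with a median of 0.27. Mdn1, an ATPase that remodels the large subunit precursor, was at 244, 216 and 236 CPM in wild type and at 192, 195, 135 and 146 CPM in the knockouts. Nop56, a core protein of the box C/D particles that modify ribosomal RNA, was at 54.6, 64.8 and 75.5 CPM against 49.3, 48.0, 45.9 and 43.5 CPM. The groups did not overlap for either. Mdn1 kept its A38x call in all settings (log2 fold change -0.68, SE 0.14), and Nop56 (-0.65, SE 0.16) lost it without WT 3 or KO 4 (edgeR adjusted p = 0.132 and 0.144).

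Lipid genes moved in several directions. Of 13 genes of lipid sensing tested in A38x 3 rose and 1 fell, 8 were below 0 and the median was -0.09. The liver X receptor targets that rose were the cholesterol efflux genes Abca1 (log2 fold change 1.52, SE 0.22) and Abcg1 (1.68, SE 0.22), and Mylip (0.90, SE 0.20). Mylip degrades the LDL receptor and did not pass without WT 3, where its log2 fold change was 0.75. Abca1 was at 37.5, 31.7 and 26.2 CPM in wild type and at 54.5, 25.8, 102 and 64.1 CPM in the knockouts, so KO 2 alone was down with wild type. Of 22 cholesterol synthesis genes 5 fell, none rose and the median was -0.47, whereas in the A32x pair 20 of 22 were higher in KO 1. Sqle, squalene epoxidase, was at 80.3, 169 and 167 CPM in wild type and at 107, 213, 109 and 109 CPM in the knockouts. In it KO 2 was the highest library and WT 1 the lowest. Without KO 4 the list had 1 member lower and with limma-voom 2. Of 17 genes of fatty acid oxidation 4 fell, Cpt1a, Cpt2, Slc25a20 and Acot1, by 0.68 to 0.84 on the log2 scale, and none of them passed without KO 4 or with limma-voom. In the A32x pair 16 of the 17 were higher in KO 1. Angptl4, a lipoprotein lipase inhibitor induced by fasting and by glucocorticoids, had the steepest fall among the named genes, with an A38x log2 fold change of -3.76 (SE 0.30). It was at 1.86, 10.1 and 11.3 CPM in wild type and at 3.87, 13.0, 0.886 and 0.672 CPM in the knockouts, so the A32x libraries and KO 2 did not follow KO 3 and KO 4.

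A ligand, an inhibitor and a member of the EGF receptor family rose in A38x. Of 25 genes of the family and its regulators 3 rose, Ereg, Errfi1 and Erbb3, none fell and the median was 0.20 (7 rose and 1 fell without KO 3). Errfi1, an inhibitor of the receptor, was at 80.1, 92.7 and 113 CPM in wild type and at 92.4, 106, 226 and 191 CPM in the knockouts. Erbb3, a receptor that signals with its partners, was at 236, 275 and 211 CPM against 264, 268, 418 and 519 CPM. KO 1 and KO 2 were within the wild-type range for both. The A38x log2 fold changes were 1.28 (SE 0.19) for Ereg, 1.02 (SE 0.15) for Errfi1 and 0.95 (SE 0.16) for Erbb3, and the 3 calls held in all 9 other settings.

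For other named genes that moved in A38x, the levels of KO 1 and KO 2 varied from gene to gene. Trp53inp1, a p53-induced regulator of autophagy and cell death, was at 76.8, 78.2 and 63.1 CPM in wild type and at 93.1, 48.7, 507 and 475 CPM in the knockouts, a log2 fold change of 2.80 (SE 0.16). Slc6a6, the taurine transporter, was at 74.3, 57.2 and 55.7 CPM against 102, 59.7, 243 and 199 CPM, a log2 fold change of 1.97 (SE 0.15). Cryab, a small heat shock protein, was at 1.61, 2.14 and 1.47 CPM against 2.90, 2.88, 13.6 and 6.78 CPM, and it did not overlap over the 7 libraries. Irf7, the interferon regulatory factor, fell by 1.98 on the log2 scale (SE 0.21), from 18.6 and 20.2 CPM to 4.78 and 5.07 CPM. WT 1 (33.7 CPM) was above KO 1 (10.5 CPM) as well, but KO 2 had the highest level of all at 37.2 CPM. Irf7 was the gene that passed over 7 libraries once the code range was a block. In that fit KO 2, alone in A34x, adds nothing to the genotype difference. Without the block the log2 fold change of Irf7 over the 7 libraries was -0.75 (SE 0.75). Irf7 was also the only one of 18 interferon-stimulated genes tested in A38x that passed there. Of 18 unfolded protein response genes Hspa5, Chac1 and Asns fell and Herpud1 rose, each in all 9 other settings. Hspa5, the chaperone BiP, was at 117, 195 and 229 CPM in wild type and at 147, 225, 109 and 137 CPM in the knockouts, and WT 1 lay between KO 3 and KO 4.

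Few genes of the cornified barrier itself passed in any setting. In A38x no member was called among 20 late cornified envelope genes (17 with a fold-change interval within 2-fold), 20 envelope scaffold genes (16), 13 suprabasal genes (13), 12 filaggrin processing genes (9) and 14 desmosome genes (12). The share within 2-fold among all genes was 68.6%. In the 9 other settings this was not fixed: 1 to 3 envelope genes fell in 7 of them, 1 filaggrin processing gene fell in 4, 1 suprabasal gene rose in 5 and 1 desmosome gene fell without KO 3, while no late cornified envelope gene was called in any. Flg, profilaggrin, was at 4950, 3337 and 3753 CPM in wild type and at 3838, 6027, 3724 and 4730 CPM in the knockouts. Krt10, a keratin of the spinous layer, was at 8853, 17559 and 13840 CPM against 11536, 16984, 13280 and 20064 CPM. Lor, loricrin, was at 2260, 1069 and 1069 CPM against 1058, 1761, 980 and 1537 CPM. The groups overlapped in all 3. The A38x intervals of the log2 fold change were -0.09 to 0.59 for Flg, -0.35 to 0.52 for Krt10 and -0.17 to 0.64 for Lor. Over 7 libraries the intervals were wider, for example -0.93 to 0.66 for Lor, and the sign of Krt1, Krt10, Krt5 and Lor turned without WT 1. Of 19 genes of the acylceramide and lipoxygenase pathway, which makes the lipid coat of the cornified cells, all 19 intervals lay within 2-fold in A38x, and 1 passed, the lipase gene Lipn, which was lost without WT 3, KO 3 or KO 4 and with limma-voom.

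Some genes around the barrier did pass in A38x. Grhl3, a transcription factor needed for barrier formation, was at 23.6, 92.7 and 83.3 CPM in wild type and at 41.2, 145, 137 and 200 CPM in the knockouts, so that all knockouts but KO 1 were above wild type. Its log2 fold change was 0.93 (SE 0.17). Hopx (0.90, SE 0.16), a homeodomain cofactor of differentiation, and F11r (0.84, SE 0.14), a tight junction adhesion molecule, rose as well and, like Grhl3, in all 9 other settings. Sprr2d rose by 1.94 on the log2 scale (SE 0.18) while the other 10 of 11 small proline-rich genes tested did not pass, and reads may be shared among its close relatives. Krt17, a stress keratin, fell by 0.93 on the log2 scale (SE 0.19), from 513 and 362 CPM to 261 and 199 CPM, with 193 CPM in WT 1, 456 in KO 1 and 704 in KO 2. Klk6, a kallikrein, fell too, and its level ran from 2.99 CPM in KO 4 to 25.6 CPM in KO 2 among the knockouts. The other 8 of 9 kallikreins tested, among them Klk5, did not pass, nor did any of 10 other membrane serine proteases and their inhibitors, with a median of 0.20.

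Hair follicle markers, which stand for another cell population of the sheet, differed widely between single libraries. All 18 were below 0 in A38x with a median of -0.88, and only Shh, the hedgehog ligand of the follicle, fell, but 12 fell without KO 3. Their summed CPM was 276, 644 and 629 in wild type and 1499, 658, 526 and 307 in the knockouts, so that KO 1 had the most and WT 1 the least. The same list had a median of 0.86 over the 7 libraries and of 3.35 in KO 1 minus WT 1. Shh was at 5.08, 9.57 and 11.05 CPM in wild type and at 13.6, 3.23, 3.66 and 4.28 CPM in the knockouts, and Mycn, which also fell in A38x, at 1.98, 9.34 and 10.03 CPM against 13.9, 4.01, 3.66 and 2.56 CPM. KO 1 was above all wild-type libraries and the other 3 knockouts were below WT 2 and WT 3. Skeletal muscle markers summed to 890 CPM in KO 2 and to 127 to 321 CPM in the other 6 libraries, and dermal fibroblast markers ran from 529 to 977 CPM. Summed Schwann cell markers were at 52.9 to 57.9 CPM in wild type and 58.4 to 75.3 CPM in the knockouts, and Merkel cell markers at 7.80 to 8.95 and 9.59 to 13.6 CPM, so both separated the 7 libraries. With 19 library measures tested, a single list at the smallest exact permutation p this design allows (0.0286) adjusts to 0.543 and could not have passed. The part of these cells in the results was not tested.

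The A32x pair, WT 1 and KO 1, shares no library with A38x. Of 371 genes that rose in A38x and were measured there, 216 (58.2%) were higher in KO 1 than in WT 1, against 50.1% of all genes. Of 229 that fell, 100 (43.7%) were lower, against 49.9% of all genes. The median log2 difference in the pair was 0.10 for the genes that rose and 0.09 for those that fell, where the A38x medians were 0.89 and -0.93. Both medians in the pair were near 0 and of the same sign. By list, KO 1 was above WT 1 for 15 of 18 glucocorticoid-responsive genes (median 0.56) and 8 of 9 sodium channel genes (0.57). It was above for 20 of 31 immediate early genes (0.23) and 8 of 20 clock genes (-0.10). All 27 cytosolic ribosomal protein genes, low in WT 1, were also higher in KO 1 (1.25), and none of them passed in A38x. Among the calls 22 of the 371 higher and 20 of the 229 lower genes did not overlap over all 7 libraries, against 0.883% and 1.24% of all genes. The 7 include the A38x libraries that gave the calls, so part of this separation was set by the choice of genes. The lower ones included Tmprss11b, Hgf, Odc1 and Mdn1 and the higher ones Scnn1g, Abcg1, Ereg and Sgk1. KO 2, the A34x library, has no wild-type library of its range. In a principal component analysis without A32x, the first component (46.0% of the variance) put WT 2 and WT 3 at -4.34 and -3.09, KO 3 and KO 4 at 31.7 and 32.2, and KO 2 at -56.5, on the other side of wild type.

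**Figure D5:**
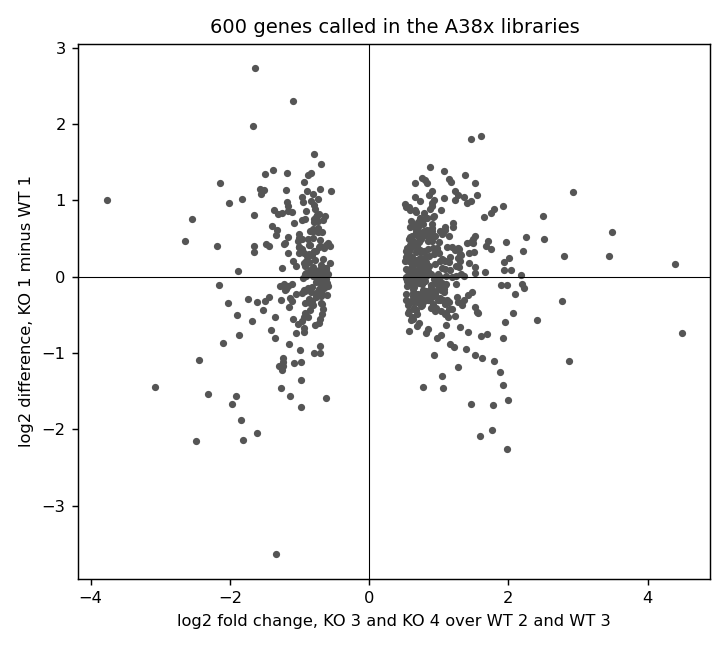
Log2 fold change of KO 3 and KO 4 over WT 2 and WT 3 (x axis) against the log2 difference of KO 1 minus WT 1 (y axis) for the 600 genes called in A38x and measured in both. Points on the right lie above 0 in 58.2% of cases and points on the left lie below 0 in 43.7%.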

How the data were processed

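RNA of newborn epidermis was sequenced from SMARTer V4 cDNA with TruSeq v2 libraries, and no label mentions strand. The submitters' processing notes name STAR 2.5.2a and the builds GRCm38.p3 and mm10, besides DESeq2, edgeR and limma without a version. Whole-read counts per gene, not normalized, were deposited by the authors and were tested here. As to counter, strand setting and annotation, nothing is given in the sources used here. They also deposited a table of scaled signal values, used only to pair gene IDs with symbols. The table held 23420 genes and 2 transgene entries, and the latter entered neither the library sizes nor the fits. Coordinates are from GENCODE M21 (GRCm38), where 23337 IDs were found.

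Groups came from the titles. Genes were filtered with filterByExpr (minimum count 10), scaled by TMM and compared in edgeR 4.0.16 (robust quasi-likelihood test, Benjamini-Hochberg over all genes) in R 4.3.3, once over 7 libraries and once over the 4 of A38x. CPM use the TMM-scaled library sizes of the 7. Alternatives used DESeq2 1.42.0 and limma 3.58.1, other filters and scaling, blocks, covariates and left-out libraries. The A32x pair was described by log2 CPM at a prior count of 2. Intervals are at 95%. Nothing in the labels says that the samples of a group were separate litters, so a p-value reflects only how much these samples vary. Samples with the same replicate number deviated together (correlations 0.608, 0.196 and 0.434), but the labels do not say that the numbers pair samples. The main fits used no pairing, and the replicate number entered as a block only in an alternative fit. No 2 libraries of a group agreed within sampling noise. The pipeline was tested on simulated data.

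The comparison, members and gene lists were chosen with earlier results of these data known. Genes named were the targeted ones, up to 12 per direction by p over 7 libraries (mean CPM at least 1, no overlap), up to 15 by fold change in A38x (mean CPM at least 5), up to 15 called in A38x that also did not overlap over 7 libraries with the same sign in the pair, up to 4 per list, and for WT 1 the 10 most different each way. Of these, the printed ones were picked after their values were seen, as were list members named outside the rule, the male germ cell and ribosome biogenesis lists, the split of the cell cycle list, and the motifs and promoters. Other motifs searched were a variant E-box, the CCAAT box, the D-box, the serum response element, a sterol regulatory element and the full cAMP response element. Of the 7 targeted genes 1 was not analysed here.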

Additional observations from a re-analysis of the deposited data

Results flagged for a closer look

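In 7 of 128 groups of 4 knockout libraries checked, 1 library lay far from the other 3 by Dixon's ratio at the 95% level. For groups not chosen by their values chance gives this in about 1 group in 20. Many of the groups here were genes called in A38x, where KO 3 and KO 4 tend to agree, so that rate does not apply to them. Egr1 was at 165.84 CPM in KO 4, where the next library was at 59.808 CPM. Shh and Mycn, genes of the growing hair follicle, were at 13.603 and 13.888 CPM in KO 1, with the next library at 4.2757 and 4.0104 CPM, and KO 1 also had the highest sum of hair follicle markers. KO 2 stood out for Sqle at 212.73 CPM (next 109.26), for Acot1, a cytosolic acyl-CoA thioesterase, at 41.586 CPM (next 25.337) and for S100a8, an alarmin subunit, at 9.2414 CPM (next 0.85376). The male germ cell genes summed to 331.2 CPM in KO 1, with the next knockout library at 25.715 CPM.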

How the results depend on the processing

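Over the 7 libraries the count of genes passing was 0 in edgeR and stayed 0 except for 1 gene each with DESeq2, with the code range as a block and without the A32x libraries. With the replicate block it was 0, with 319 genes at an unadjusted p under 0.05, and the block changed no call. A covariate of germ cell gene level, chosen after seeing the data, also gave 0. In A38x the count of lower genes was 139 with limma-voom and ran from 154 to 365 with 1 library left out. Of 96 genes called in A38x and recomputed, 48 were called under every alternative that tested them and 48 lost the call under at least 1. No paired analysis was possible within A38x because its groups share only replicate number 3.

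The signs of structural keratinocyte genes over 7 libraries were not stable. With 1 library left out, log2 fold changes ran from -0.01446 to 0.4317 for Krt1, -0.02225 to 0.4411 for Krt10, -0.3313 to 0.3182 for Lor, -0.1258 to 0.2747 for Krt5 and -0.2936 to 0.2171 for Krt14, and without WT 1 the signs of Krt1, Krt10, Lor and Krt5 turned. Without the A32x libraries they were 0.4169 for Lor and -0.1619 for Krt5, with a mitochondrial rRNA covariate -0.02125, -0.0384, 0.2852 and -0.1089 for Krt1, Krt10, Lor and Krt5, with quality weights 0.1657 for Lor and -0.1128 for Krt5, and with the germ cell covariate 0.02751 for Lor. Krt14 turned to 0.0157 with limma-voom and 0.114 with the replicate block, and Tmprss11g to -0.0192 with the range block. In A38x with 1 library left out, Tmprss11g ran from -0.05104 to 0.6299, Krt1 from -0.2585 to 0.3084, Krt10 from -0.2339 to 0.3498 and Lor from -0.1177 to 0.5202. The difference in summed sebaceous gland markers turned to -7.296 when shares were taken outside mitochondrial genes. The causes of these turns were not tested. Depth limits genes of low level, such as Tmprss11d.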
